A study of Homo sapiens with 5 samples.

Results

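The genes described here encode the machinery of the endoplasmic reticulum (ER) that recognises signal peptides, moves nascent chains into or across the ER membrane, cleaves and glycosylates them, and folds them or sends them for degradation. They were matched by gene symbol, from families such as PDIA, SEC61 to SEC63, SSR, SPCS, SRP, STT3, DERL and EDEM. Single names such as CALR, CANX, HSPA5 and HSP90B1 were included as well. The symbols were listed with earlier results of these data known. The rule found 52 of the 6309 genes in the authors' deposited table. Of these, 50 belong to the ER machinery and 2 were matched by name only: OSTF1, an osteoclast stimulating factor of the cytoplasm, and OSTM1, a partner of a lysosomal chloride transporter. Among the protein-coding symbols of RefSeq the rule matches 68, and 16 of them were not analysed here, including SEC61A1, which forms the pore of the translocation channel, and also PDIA4, SIL1, SSR1, SPCS2 and XBP1.

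The study compared HL-60 cells treated with decitabine, a deoxycytidine analogue that traps DNA methyltransferases, with HL-60 cells given the solvent DMSO. HL-60 is an established human promyelocytic leukaemia cell line, and the cells of both groups carry the label WT. A dose of 100 nM decitabine was given 3 times, at the start, after 24 hours and after 48 hours, and cells of both groups were lysed at 72 hours. Total RNA was sequenced from 2 decitabine samples and 2 DMSO samples, and the ribosome footprints of all samples went into 1 pooled library. The title of that library names no treatment, and how its footprints were assigned to decitabine or DMSO cannot be told from it. Every value below describes this cell line at this dose and time.

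The authors' deposited table gives each gene a coefficient, the change of its translation efficiency with drug. Translation efficiency relates the footprints of an mRNA to its abundance in total RNA, so a change in the amount of mRNA alone does not move it. A coefficient above 0 was read as higher translation efficiency with decitabine, on a natural log scale, although the log base is not stated. Values per library were not analysed here and the depth of the libraries is unknown, so each error is a standard error (SE) implied by the authors' p-value, and no SD or n can be given. A gene was called at an adjusted p below 0.05. Over all 6309 genes the coefficients had a median of 0.09, and members are therefore also set against that median. The 6 promyelocyte markers listed (MPO, ELANE, AZU1, PRTN3, CTSG and CEBPE) were all among the genes of the table, against 0 of 5 erythroid and megakaryocyte markers, 0 of 4 lymphoid markers and 1 of 5 plasma cell markers, MZB1. Presence there says only that a gene passed a filter of the authors that is not stated.

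Proteins bound for secretion, the cell surface, lysosomes or granules begin with a signal peptide or membrane segment that the signal recognition particle (SRP) binds as it leaves the ribosome. The particle docks the ribosome on the ER, the chain passes through the SEC61 channel, signal peptidase removes the signal, oligosaccharyltransferase attaches glycans, and chaperones and disulphide isomerases fold the product. Chains that fail to fold are drawn back to the cytosol and degraded, and an overloaded ER raises transcription of its own chaperones through the unfolded protein response. Promyelocytes make large amounts of such cargo, since the enzymes of their azurophil granules are all made on ER-bound ribosomes.

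Translation efficiency was higher with decitabine for 2 of the 52 genes, CALR and TXNDC5, and no member was lower, at the adjusted threshold of the authors' deposited table. Among all 6309 genes 0.634% were called higher and 0.174% lower, against 3.85% of the members called higher. At an unadjusted p below 0.05, 11 members were higher and 2 lower, where 8.35% and 1.95% of all genes were so called. With the median of all genes subtracted first, 3 members were higher and 3 lower at that unadjusted threshold. Of all genes, 3.69% and 4.25% were so called. These centred calls of members thus had no lean to higher values, although 34 members (65.4%) lay above the median of all genes. Members were measured more precisely than most genes: their median implied SE was 0.15, against 0.25 for all genes, and 32 of the 52 lay in the most precise 20% of the table. Within those 20% of genes, 2 of 32 members (6.25%) were called higher, against 2.77% of all genes there. Read without adjustment, 9 of those 32 members (28.1%) were higher, against 18.6% of all genes there. Among genes with an implied SE under 0.1, 1 of 12 members (8.33%) was called higher, against 8.30% of all 253 such genes. At an unadjusted p below 0.05, 58.3% of these 12 members were higher and 8.33% lower, against 33.2% and 10.7% of the 253 genes. The members were chosen with earlier results of these data known, so these shares are descriptions and were not tested.

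The coefficients of the 52 members had a median of 0.14, against 0.09 for all genes, and ran between -0.56 for SDF2L1 and 0.53 for EDEM2, per the authors' deposited table. Above 0 lay 40 members (76.9%), against 65.0% of all genes, and above the median of all genes lay 34 (65.4%). For 39 members the 95% interval included 0. The genes that fold proteins in the ER lumen stood somewhat above those that bring proteins in: the median was 0.16 over 16 chaperones, isomerases and oxidases, of which 14 were above 0, and 0.11 over 27 proteins of targeting, translocation, signal cleavage and glycosylation, of which 18 were above 0. This difference between role groups was not tested.

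**Figure D1:**
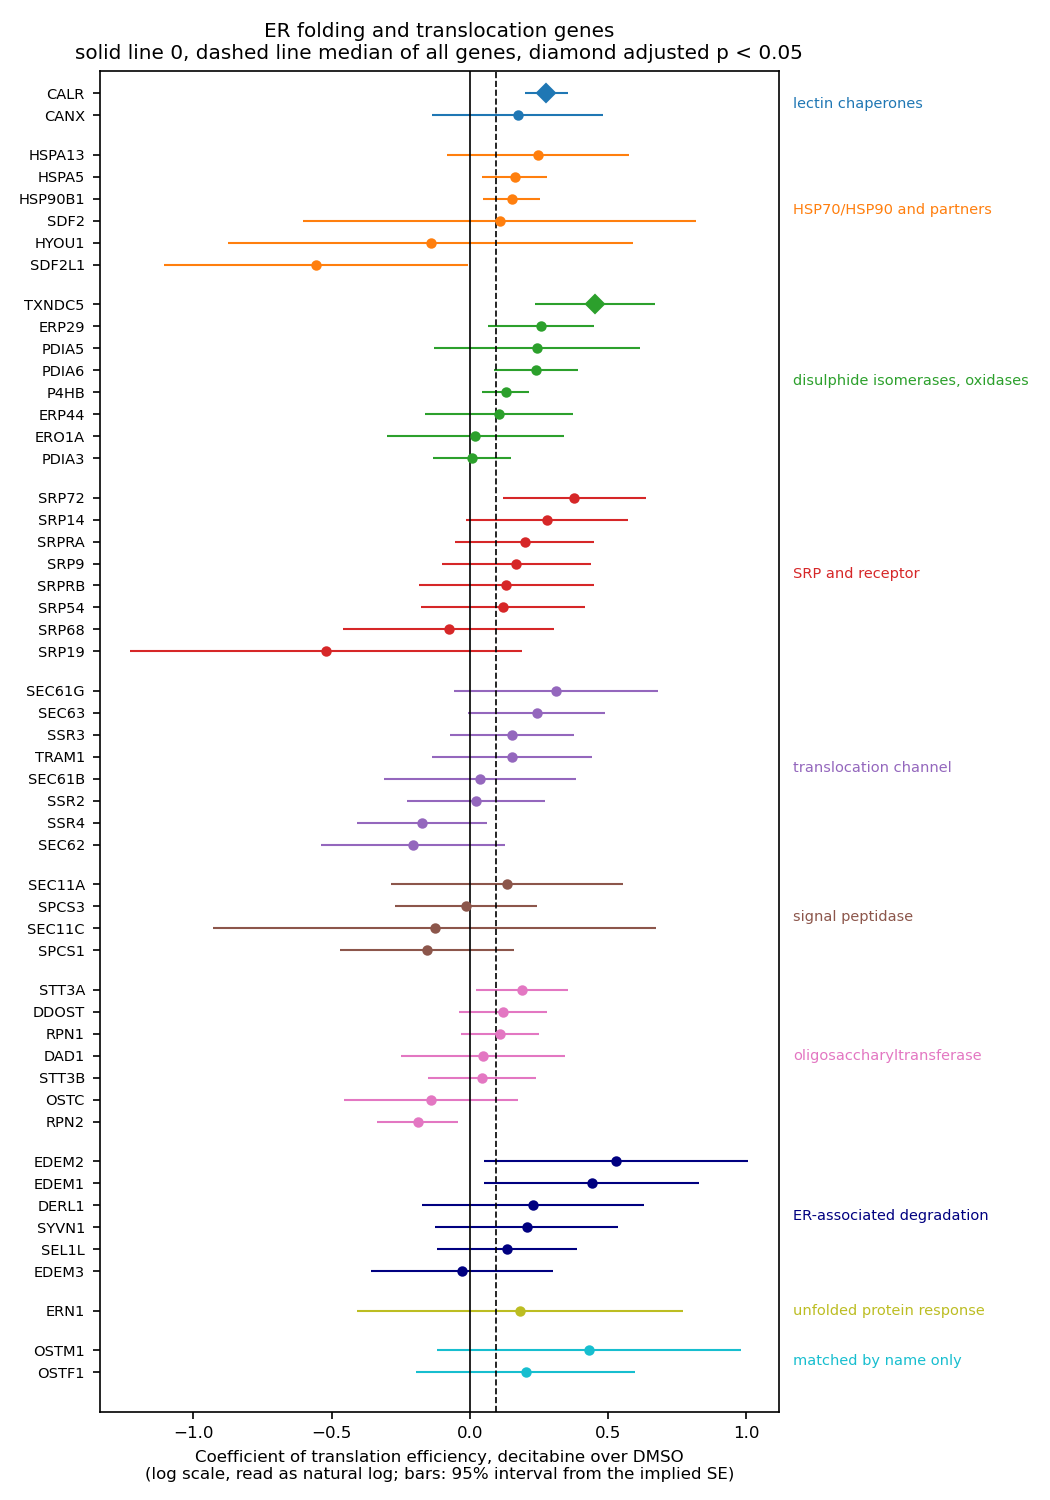
The coefficient of each of the 52 genes, decitabine over DMSO, on the horizontal axis (natural log), with the 95% interval from its implied SE, grouped by role. CALR and TXNDC5, the diamonds, are the called genes, and the intervals of 39 genes include 0.

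**Figure D2:**
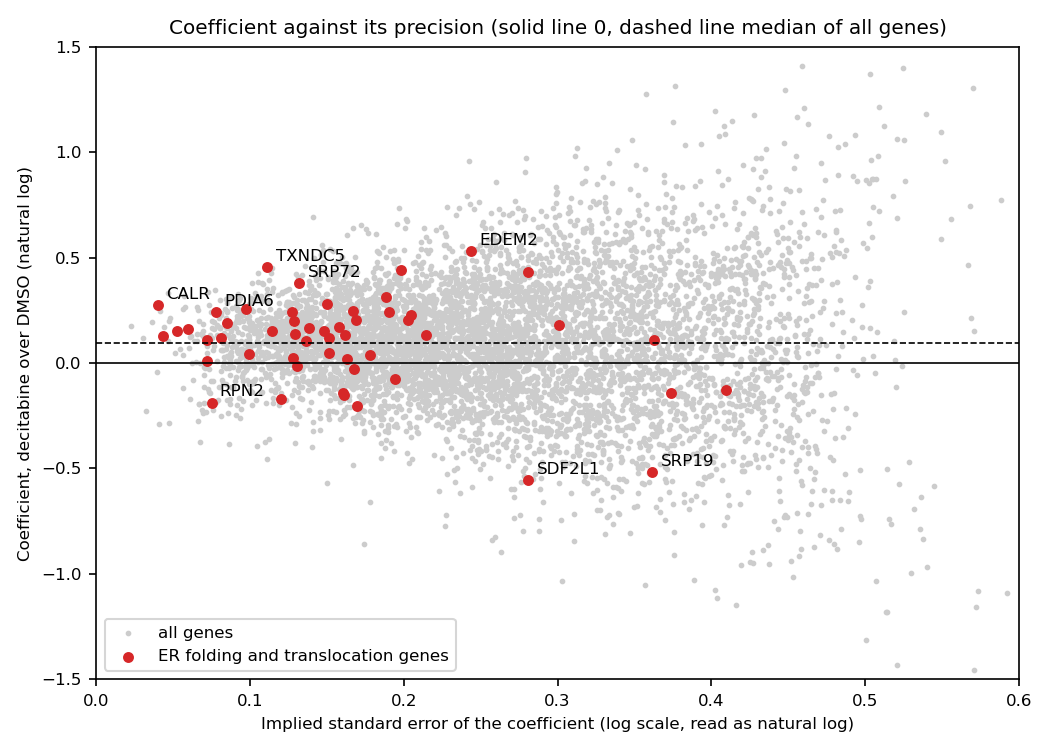
The coefficient (vertical axis, natural log) against its implied SE (horizontal axis) for all genes in grey and the 52 ER genes in red; 20 genes lie outside the plotted range. CALR and RPN2 are both precise and lie on opposite sides of the dashed median of all genes, while SDF2L1 and SRP19 have wide errors.

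The lectin chaperones calreticulin and calnexin hold newly glycosylated proteins in the ER until they fold. CALR, encoding the soluble calreticulin, rose: its coefficient was 0.28 with an implied SE of 0.04 (adjusted p = 5.42e-09), per the authors' deposited table. On a natural log scale this is 1.32 times the DMSO level, and it would be 1.21 times if the coefficient were a log2 value. By p-value CALR ranked 5 among the 6309 genes, but 76.0% of all genes had a lower coefficient, and its implied SE was the smallest of the members. CANX, encoding the membrane-bound calnexin, had 0.17 ± 0.16 (adjusted p = 0.768), per the authors' deposited table. CALR minus CANX was 0.10 (95% interval -0.22 to 0.42), which leaves room for no difference as well as for a sizeable one. PDIA3, the oxidoreductase that both lectins recruit to their clients, had 0.01 ± 0.07 (adjusted p = 0.985), per the authors' deposited table, and CALR minus PDIA3 was 0.27 (95% interval 0.11 to 0.43).

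Disulphide isomerases form and rearrange disulphide bonds, and the oxidase ERO1A recharges them. All 8 measured members of this group had coefficients above 0, per the authors' deposited table, with a median of 0.19, and 6 were above the median of all genes. TXNDC5, an isomerase with several thioredoxin domains, rose with 0.45 ± 0.11 (implied SE, adjusted p = 0.0127), per the authors' deposited table, which is 1.57 times the DMSO level on a natural log scale and 1.37 times if the coefficient is a log2 value. With the median of all genes subtracted from the coefficients of the authors' deposited table, TXNDC5 no longer passed (adjusted p = 0.134), whereas CALR passed again (adjusted p = 0.00246). A further 3 isomerase genes had an unadjusted p below 0.05 and did not pass after adjustment. PDIA6 had 0.24 ± 0.08 (adjusted p = 0.122), ERP29 had 0.26 ± 0.10 (adjusted p = 0.217) and P4HB, the archetypal protein disulphide isomerase, had 0.13 ± 0.04 (adjusted p = 0.151), per the authors' deposited table. P4HB was among the most precise members, so its 95% interval of 0.04 to 0.21 is narrow and lies below the coefficient of TXNDC5. TXNDC5 minus P4HB was 0.32 (95% interval 0.09 to 0.56). The remaining members, PDIA5 with 0.24 ± 0.19, ERP44 with 0.11 ± 0.14 and ERO1A with 0.02 ± 0.16, per the authors' deposited table, did not pass.

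HSPA5 (BiP) is the HSP70 of the ER and holds the sensors of the unfolded protein response inactive, and HSP90B1 (GRP94) is its HSP90. Both had coefficients of like size, 0.16 ± 0.06 (implied SE, adjusted p = 0.199) for HSPA5 and 0.15 ± 0.05 (adjusted p = 0.164) for HSP90B1, per the authors' deposited table, and neither passed. HSPA5 minus HSP90B1 was 0.01 (95% interval -0.15 to 0.17). HSPA13, an atypical HSP70 of the ER, had 0.25 ± 0.17 (adjusted p = 0.643), per the authors' deposited table. HYOU1, SDF2L1 and SDF2, the partners placed in this role group, had wide errors. HYOU1, the nucleotide exchange factor of HSPA5, had -0.14 ± 0.37 (adjusted p = 0.941), per the authors' deposited table. SDF2L1, which binds an ER J-domain protein and keeps HSPA5 clients from aggregating, had the lowest coefficient of the members, -0.56 ± 0.28 (unadjusted p = 0.0474, adjusted p = 0.471), and its paralogue SDF2 had 0.11 ± 0.36 (adjusted p = 0.954), per the authors' deposited table. SDF2L1 minus SDF2 was -0.67 (95% interval -1.57 to 0.23).

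Set against their cytosolic relatives, HSPA5 and HSP90B1 had smaller coefficients, but a difference past its interval was seen in 1 of 3 comparisons. HSP90AA1, the inducible cytosolic HSP90, exceeded HSP90B1 by 0.18 (95% interval 0.04 to 0.32). HSP90AB1, the constitutive cytosolic form, exceeded HSP90B1 by 0.06 (95% interval -0.08 to 0.20), and HSPA8, the constitutive cytosolic HSP70, exceeded HSPA5 by 0.09 (95% interval -0.06 to 0.23).

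The genes of the unfolded protein response carry short promoter elements that its transcription factors bind, and these were searched in the RefSeq promoters of the members (GRCh38.p14, from 250 bases before to 50 bases after each start, 45 members with at least 1 window, both strands). Promoter elements act on transcription, whereas the coefficients describe ribosome occupancy relative to mRNA, so a match is a description of the member and bears on no cause of its coefficient. The ER stress element (ERSE), spelled CCAAT, then 9 bases of any kind, then CCACG, was present in 5 of the 45 members, or 11.1%, against 0.175% of the genes of the table with a window and 0.0916% of all 27305 genes with a window. The matches follow, each read 5′ to 3′ on the strand that carries the element, with its fixed letters in capitals.
CALR, chr19:12938384-12938402, minus strand: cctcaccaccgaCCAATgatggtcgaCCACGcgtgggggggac
HSPA5, chr9:125241391-125241409, minus strand: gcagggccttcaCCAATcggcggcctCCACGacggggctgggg
HSP90B1, chr12:103930216-103930234, plus strand: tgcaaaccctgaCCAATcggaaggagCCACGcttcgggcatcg
HSP90B1, chr12:103930321-103930339, minus strand: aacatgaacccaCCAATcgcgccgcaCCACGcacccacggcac
PDIA6, chr2:10812853-10812871, minus strand: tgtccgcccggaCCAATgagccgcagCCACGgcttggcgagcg
CANX, chr5:179698778-179698796, plus strand: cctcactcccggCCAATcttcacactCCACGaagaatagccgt

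These 5 genes had coefficients between 0.15 for HSP90B1 and 0.28 for CALR in the authors' deposited table, all above 0 and all above the median of all genes, with a median of 0.17. CALR was the only called gene among them. The matches of CANX and PDIA6 lie inside the spans of these genes, near RefSeq starts within them. The other 4 genes of the table that carry the element, which are no members, had a median of 0.01, with 2 above and 2 below 0.

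The related element ERSE-II, spelled ATTGG, then 1 base of any kind, then CCACG, was found in 2 of 45 members, against 0.175% of the genes of the table and 0.0696% of all genes with a window, and is shown because these members had coefficients below 0. HYOU1 carried 2 copies and SDF2L1 carried 1, with the fixed letters in capitals.
HYOU1, chr11:119057274-119057284, plus strand: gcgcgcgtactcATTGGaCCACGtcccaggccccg
HYOU1, chr11:119057380-119057390, plus strand: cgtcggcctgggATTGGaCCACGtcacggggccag
SDF2L1, chr22:21642114-21642124, minus strand: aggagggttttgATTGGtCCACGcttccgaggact

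Both genes had wide errors. The 95% interval of HYOU1 ran between -0.87 and 0.59, and that of SDF2L1 between -1.11 and -0.006. Since ERSE-II was picked for display by the sign of these coefficients, the ordering of members by element is a description with no test. The 7 other genes of the table with ERSE-II had a median coefficient of 0.02. Another element, TGACGTG, known as a binding sequence of XBP1, was found in 6 of 45 members, against 3.67% of the genes of the table and 2.40% of all genes with a window: TXNDC5, HYOU1 (where it overlaps an ERSE-II), SEC62, SRP19, SSR3 and SSR4. Their coefficients had a median of -0.16, against 0.09 over all 189 genes of the table with that site, and only TXNDC5 was called. Its match, with the element in capitals, lies before a RefSeq start inside the gene's span.
TXNDC5, chr6:7910163-7910169, minus strand: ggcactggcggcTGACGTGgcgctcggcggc

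Start sequences of mRNAs can also set their translation, as in mRNAs that begin with a run of pyrimidines. A first base C followed by at least 4 pyrimidines was found in 2 of 45 members, SSR2 and SEC63, or 4.44%, against 7.79% of the genes of the table and 5.14% of all genes with a window. The 401 genes of the table with such a start had a median coefficient of 0.03, against 0.02 for SSR2 and 0.24 for SEC63, per the authors' deposited table.

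The SRP is an RNA-protein particle, and its measured proteins had mixed coefficients. Of 8 genes for the particle and its receptor 6 were above 0, with a median of 0.15, and none passed in the authors' deposited table. SRP72 had the highest value, 0.38 ± 0.13 (implied SE, unadjusted p = 0.00421, adjusted p = 0.171), and SRP68, with which it forms a dimer on the SRP RNA, had -0.08 ± 0.19 (adjusted p = 0.939), per the authors' deposited table. SRP72 minus SRP68 was 0.45 (95% interval -0.01 to 0.91). SRP9 and SRP14, the pair that slows elongation while the ribosome docks, had 0.17 ± 0.14 (adjusted p = 0.733) and 0.28 ± 0.15 (adjusted p = 0.522), per the authors' deposited table. SRP54, the subunit that binds the signal peptide, had 0.12 ± 0.15 (adjusted p = 0.845), and SRP19, which helps SRP54 onto the RNA, had -0.52 ± 0.36 (adjusted p = 0.652), per the authors' deposited table, too imprecise to place. The receptor subunits were close to each other, with 0.20 ± 0.13 (adjusted p = 0.618) for SRPRA and 0.13 ± 0.16 (adjusted p = 0.839) for its membrane anchor SRPRB in the authors' deposited table.

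The translocation group lay at the median of all genes. Its 8 members had a median of 0.09, with 4 above and 4 below the median of all genes, and none had an unadjusted p below 0.05, per the authors' deposited table. Of the small subunits of the channel, SEC61G had 0.31 ± 0.19 (adjusted p = 0.585) and SEC61B had 0.04 ± 0.18 (adjusted p = 0.969), per the authors' deposited table. SEC63 and SEC62 work together on clients that enter after synthesis, and SEC63 carries the J-domain that recruits HSPA5. SEC63 had 0.24 ± 0.13 (adjusted p = 0.499) and SEC62 had -0.20 ± 0.17 (adjusted p = 0.736), per the authors' deposited table, and SEC63 minus SEC62 was 0.45 (95% interval 0.03 to 0.86). The translocon-associated protein complex was spread in the same way, with 0.15 ± 0.11 for SSR3, 0.02 ± 0.13 for SSR2 and -0.17 ± 0.12 for SSR4, per the authors' deposited table. SSR3 minus SSR4 was 0.33 (95% interval 0.00 to 0.65, its lower bound just above 0). TRAM1, a membrane protein next to the channel, had 0.15 ± 0.15 (adjusted p = 0.781), per the authors' deposited table.

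Signal peptidase, which cuts off the signal peptide, was the role group with the lowest median, -0.07 over 4 genes, of which 3 were below 0, and none passed in the authors' deposited table. The catalytic subunits SEC11A and SEC11C had 0.13 ± 0.21 (adjusted p = 0.886) and -0.13 ± 0.41 (adjusted p = 0.954), and the accessory subunits SPCS1 and SPCS3 had -0.15 ± 0.16 (adjusted p = 0.798) and -0.01 ± 0.13 (adjusted p = 0.987), per the authors' deposited table. Every one of these intervals included 0.

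Oligosaccharyltransferase transfers the preassembled glycan to asparagines of the entering chain, and its genes had the smallest median implied SE of the role groups, 0.09. The median of its 7 coefficients was 0.05, which was below that of all genes, and none passed in the authors' deposited table. STT3A, the catalytic subunit that works beside the channel, had 0.19 ± 0.09 (unadjusted p = 0.0256, adjusted p = 0.393), and its paralogue STT3B, which glycosylates skipped sites, had 0.04 ± 0.10 (adjusted p = 0.928), per the authors' deposited table. STT3A minus STT3B was 0.15 (95% interval -0.11 to 0.40). RPN2, ribophorin II, was the low member, with -0.19 ± 0.07 (unadjusted p = 0.0121, adjusted p = 0.275), per the authors' deposited table, or 0.829 times the DMSO level on a natural log scale. After subtraction of the median of all genes in the authors' deposited table, RPN2 was the only member called lower (centred coefficient -0.28, adjusted p = 0.0311). With that centring 0.507% of all genes were called lower and 0.0793% higher, and CALR was the only member called higher. RPN1, ribophorin I, had 0.11 ± 0.07 (adjusted p = 0.631), per the authors' deposited table, so RPN1 minus RPN2 was 0.30 (95% interval 0.09 to 0.50). The other subunits had 0.12 ± 0.08 (DDOST), 0.05 ± 0.15 (DAD1) and -0.14 ± 0.16 (OSTC), per the authors' deposited table.

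The plot of differences between partners collects the 25 pairs that were compared. For 6 of them the interval left out 0: CALR and PDIA3, TXNDC5 and P4HB, SEC63 and SEC62, SSR3 and SSR4, RPN1 and RPN2, and HSP90AA1 and HSP90B1. The intervals take the errors of both genes as independent and are not adjusted for the number of pairs, which were listed by known partnership after their values had been seen. The other 19 intervals included 0, and several were wide enough to hold differences larger than those of the 6 pairs.

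**Figure D3:**
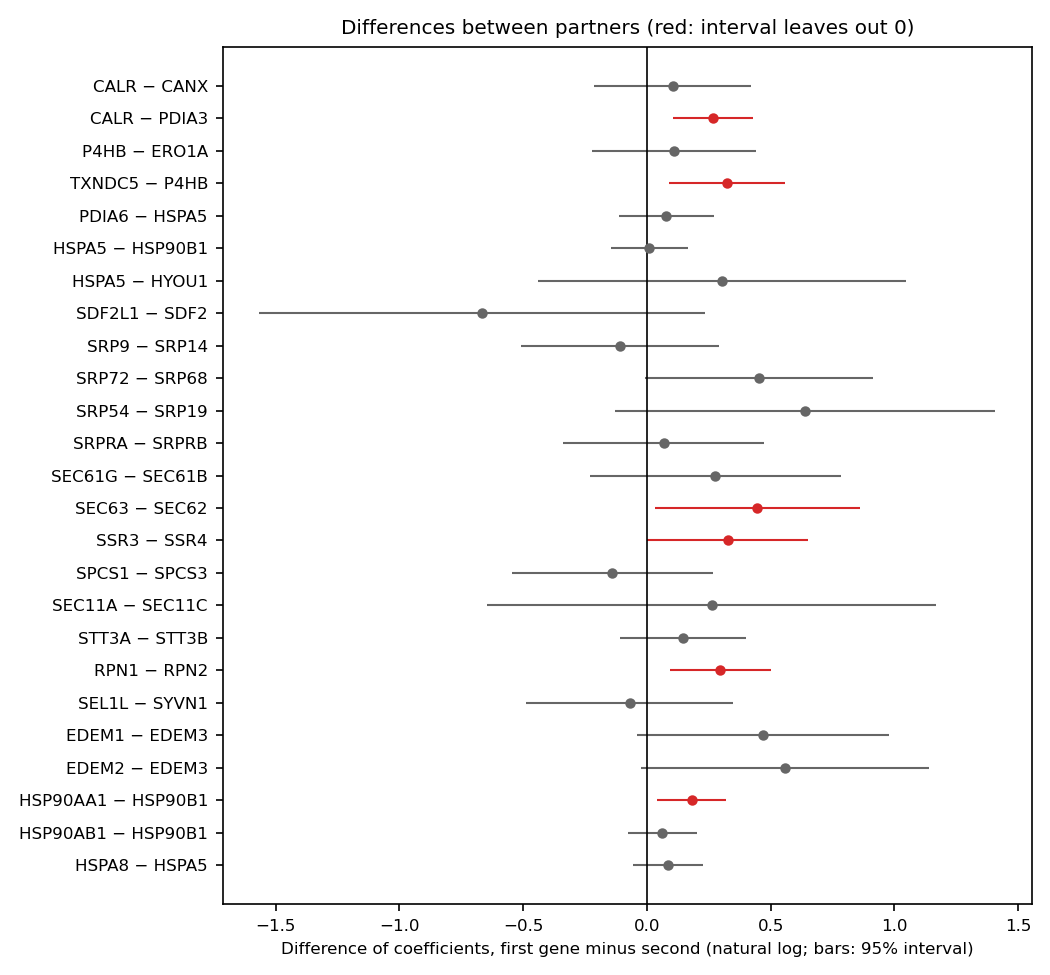
Difference of the coefficients of 2 partner genes, first minus second (horizontal axis, natural log), with its 95% interval, for 25 pairs. Intervals that leave out 0 are red, and there are 6 of them, with RPN1 minus RPN2 at 0.30.

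ER-associated degradation draws misfolded chains out of the ER through a membrane ligase complex, and its 6 genes had the highest median among the role groups of more than 2 genes, 0.22, with 5 above 0 and none called in the authors' deposited table. EDEM1 and EDEM2, mannose-trimming proteins that mark glycoproteins for disposal, had 0.44 ± 0.20 (unadjusted p = 0.0261, adjusted p = 0.395) and 0.53 ± 0.24 (unadjusted p = 0.0295, adjusted p = 0.406), per the authors' deposited table. EDEM3, a relative of both, had -0.03 ± 0.17 (adjusted p = 0.973), per the authors' deposited table. The intervals of EDEM1 minus EDEM3 (-0.04 to 0.98) and EDEM2 minus EDEM3 (-0.02 to 1.14) both included 0. The ligase SYVN1 and its adaptor SEL1L had 0.21 ± 0.17 (adjusted p = 0.733) and 0.14 ± 0.13 (adjusted p = 0.775), and DERL1, a channel protein of the complex, had 0.23 ± 0.20 (adjusted p = 0.767), per the authors' deposited table. ERN1, which encodes IRE1 alpha, the sensor that splices XBP1 mRNA, had 0.18 ± 0.30 (adjusted p = 0.891), per the authors' deposited table. The genes matched by name only, OSTM1 with 0.43 ± 0.28 and OSTF1 with 0.20 ± 0.20, per the authors' deposited table, did not pass.

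A list of 90 further genes in the table was drawn up for the ER pathway by function, except SND1, an RNA-binding protein that entered it by its name. None of the 90 was called in either direction in the authors' deposited table, whose z test gave 6 higher and 1 lower, SND1, at an unadjusted p below 0.05, against 8.35% and 1.95% of all genes. After subtraction of the median of all genes, 3 were higher and 4 lower without adjustment, against 3.69% and 4.25% of all genes. Their median was 0.13, and 71 were above 0 (78.9%, against 65.0% of all genes), but 48 of the 90 were above the median of all genes. Among 25 further chaperones and folding enzymes, PRDX4, the ER peroxiredoxin that passes oxidising equivalents to isomerases, had 0.51 ± 0.15 (implied SE, adjusted p = 0.0535) and DNAJB11, a J-domain partner of HSPA5, had 0.64 ± 0.20 (adjusted p = 0.103), while FKBP2, a prolyl isomerase, had -0.68 ± 0.35 (adjusted p = 0.489), per the authors' deposited table. The 23 further degradation genes had a median of 0.14, with 21 above 0; BCAP31, an ER membrane sorting protein, had 0.39 ± 0.13 (adjusted p = 0.161), and the ubiquitin-conjugating enzymes UBE2J2 and UBE2J1 had 0.52 ± 0.26 (adjusted p = 0.474) and 0.38 ± 0.20 (adjusted p = 0.485), per the authors' deposited table. Of 11 genes of the lectin cycle, which had a median of 0.13, UGGT1, the folding sensor that returns glycoproteins to CALR and CANX, had 0.20 ± 0.09 (adjusted p = 0.413), the glycan-binding MLEC had 0.25 ± 0.16 (adjusted p = 0.608) and the mannosidase MAN1B1 had 0.34 ± 0.23 (adjusted p = 0.643), per the authors' deposited table.

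Among the 9 further genes of the unfolded protein response the median was 0.19, and 8 were above 0. TMBIM6, an ER calcium channel-like protein, had 0.17 ± 0.08 (adjusted p = 0.395), MBTPS1, the protease that releases ATF6, had 0.27 ± 0.17 (adjusted p = 0.601), and EIF2AK3, the kinase PERK, had 0.37 ± 0.31 (adjusted p = 0.736), per the authors' deposited table. The 9 further genes listed with oligosaccharyltransferase and the translocon, a list that also holds BTF3 and HM13, had a median of 0.00. Of these, 1 of 9 lay above the median of all genes. TMEM147 had 0.20 ± 0.23, KRTCAP2 had -0.12 ± 0.16 and CCDC47 had -0.08 ± 0.15, per the authors' deposited table. The 13 genes listed for the ER membrane complex and tail-anchor insertion had a median of 0.09. EMC7 had 0.38 ± 0.22 (adjusted p = 0.579), GET4 had 0.33 ± 0.28 (adjusted p = 0.736) and SND1 had -0.25 ± 0.09 (adjusted p = 0.199), per the authors' deposited table; SND1 was called lower after subtraction of the median of all genes (adjusted p = 0.0311).

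**Figure D4:**
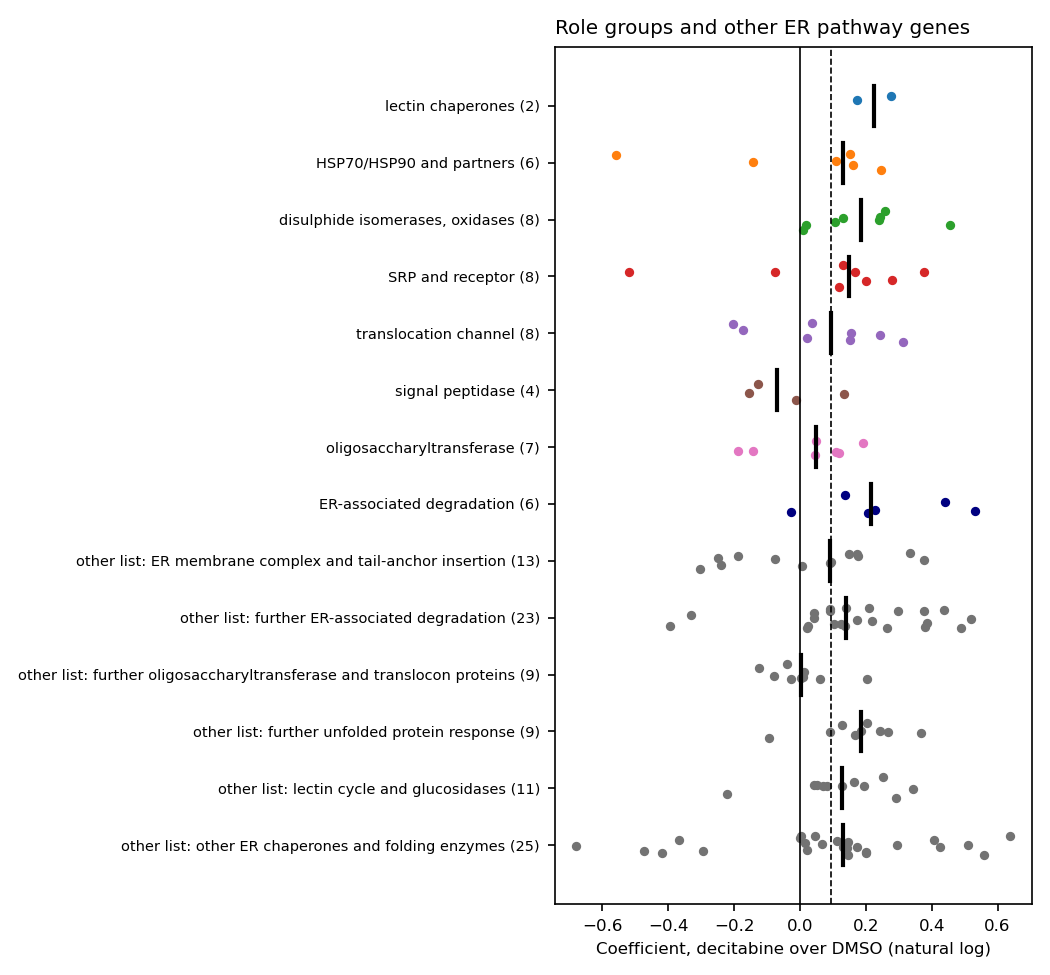
Coefficients (horizontal axis, natural log) of the genes in 8 role groups, in colour, and in 6 lists of other ER pathway genes, in grey, with the number of genes in brackets; black bars are medians, the solid line is 0 and the dashed line the median of all genes; ERN1, OSTM1 and OSTF1 are not drawn. Signal peptidase has the lowest median, -0.07, and ER-associated degradation one of the highest, 0.22.

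On hg38, by the gene limits of RefSeq, TXNDC5 spans 7881517 to 7910788 of chromosome 6, and RPN2 spans 37179330 to 37241619 of chromosome 20. RefSeq lists pseudogenes by symbol for 13 members, among them OSTC, SRP14, SRP68, SRP72, PDIA3 and HSPA5, and the treatment of reads shared with such copies is not stated by the sources at hand. CALR, TXNDC5 and RPN2 are among the 39 members with none.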

How the data were processed

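Total RNA and ribosome-protected fragments of HL-60 cells were sequenced by the authors and handled with UMI-tools 1.1.1, SAMtools 1.11 and Bowtie2 on hg38, per the submitters' processing notes. What each tool did, how counts were filtered and which program fitted the model has no mention in the notes, labels or header. The deposited table holds, per the file headers, a coefficient of the drug, read as a natural log, with its two-sided p-value from a z test, an adjusted p-value and a q-value for each gene. The deposited adjusted p-value equals a Benjamini-Hochberg adjustment over all 6309 genes (largest difference 6.61e-14). Read counts and depth were not analysed here. Cells were seeded in duplicate wells, with no word on separate starting cultures. The deposited p-values can thus reflect no more than the variation among these samples, possibly technical.

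The implied SE is the coefficient divided by the z of its p-value, and 95% intervals are the coefficient ± that SE times the normal quantile. Centring subtracted the median of all coefficients, after which p-values were computed and adjusted anew over all genes. Members, role groups and lists were chosen with earlier results of these data known. All members are accounted for; values in full are given for called members, those with an unadjusted p below 0.05 and the extremes of each role group, and for each list the 3 smallest p-values. Promoter letters were matched by symbol to RefSeq (GRCh38.p14). The implied SE and the centred calls were tested on simulated coefficients with independent errors. The planted changes were larger than any coefficient of the members. The group counts, pair intervals and promoter searches were not tested in this way. Genes grouped by protein sequence were not analysed here. Python 3.11.15, scipy 1.17.1 and statsmodels 0.14.6 were used.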

Additional observations from a re-analysis of the deposited data

How the results depend on the processing

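The 2 members called higher became 1 (CALR) at an adjusted p below 0.01, with the Benjamini-Yekutieli adjustment, and after centring on the median or on the precision-weighted mean of all genes. Both centrings of the coefficients in the authors' deposited table gave 1 member called lower, RPN2 (adjusted p = 0.0311 and 0.0387), against 0 without centring, because centring lowers each coefficient. Both counts kept their values at an adjusted p below 0.1, with the authors' q-value, without the 25% of genes with the largest implied SE, and without OSTF1 and OSTM1. Leaving out OSTF1 and OSTM1 could not change either count, since neither gene was called and the adjusted p-values were kept. CALR passed under all 7 alternatives tried for it. Among these, an adjusted p below 0.1 and the authors' q-value are more lenient than the main call and could not remove a called gene. Leaving out the 25% of genes with the largest implied SE also eased the call. It lowered the adjusted p of TXNDC5 from 0.0127 to 0.00952. TXNDC5 passed only under these 3 alternatives. It did not pass under the other 4 of 7, with an adjusted p of 0.118 by Benjamini-Yekutieli and 0.134 and 0.123 after the centrings. The median of the members minus that of all genes was 0.04, and between 0.04 and 0.06 under 4 alternatives. Among these, centring on the precision-weighted mean moves both medians alike and could not change the difference. No paired analysis was possible because the deposited table has no values per library, and for the same reason no replicate could be left out. The unknown depth limits the members with wide implied SEs, such as SDF2L1 and SRP19.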
